A study of Mus musculus with 21 samples.

Results

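Foxa2-only peaks at promoters are sites called as bound by the forkhead factor Foxa2, without a T (brachyury) peak, close to the start of a protein-coding gene. They were selected on the called peaks of 2 ChIP-seq libraries from cultured notochord progenitor-like cells. A Foxa2 peak was taken when it did not overlap a T peak by 1 bp and its summit lay within 5000 bp of the 5′ end of a protein-coding gene (GENCODE vM21, mm10). Of 22684 Foxa2 peaks, 21292 lacked overlap with the 6875 T peaks, and 1609 of these met the distance rule, which is 7.56% of the Foxa2-only peaks and 7.09% of all Foxa2 peaks. The 1609 peaks lay at the promoters of 1723 genes. Of these genes, 1648 could be matched by symbol, 56 of them by an older symbol, to 1646 entries of the RNA-seq table, which are called member genes here. They make up 8.07% of the 20409 protein-coding genes of that table, and all percentages over genes below refer to these sets.

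The notochord is a midline rod of mesoderm that patterns the neural tube, somites and gut through secreted signals such as Sonic hedgehog. Foxa2 is a winged-helix protein of node, notochord, floor plate and endoderm, required in the mouse for node and notochord formation, and it can bind its forkhead motif in closed chromatin. A promoter is the region around a transcription start site, and many factors of this kind bind mainly in distal elements. Mouse promoters are often CpG islands, whereas forkhead motifs are rich in A and T.

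The study compared notochord progenitors (NotoPs) with mesodermal progenitors (MPs) in the embryo and in cultures differentiated from mouse embryonic stem cells (mESCs). Of the 21 samples, 11 were used here, 9 RNA-seq and 2 ChIP-seq libraries, with 1 library for every condition. No value therefore has a replicate spread, and no test or p-value is given. All cells derive from genetically modified F1G4 (C57BL/6N x SV129) mESCs. Embryonic cells carried *T::H2B-Venus*, *Noto::H2B-mCherry* and *Foxa2::H2B-mTurquoise* reporters on bacterial artificial chromosomes, and came from embryos made, according to the labels, by tetraploid complementation, whereas the text of the study names aggregation with diploid morulae. From caudal ends at E8.5 and E9.5, pooled tissue was sorted into NotoPs, positive for all reporters, and MPs, positive for T and negative for Noto and Foxa2. Trunk notochord at both stages was positive for all reporters. Cultured cells carried *TRE::Foxa2-IRES-EGFP* at *Rosa26*, *T::H2B-mCherry-T2A-irTA* and *Noto::H2B-mTurquoise*, so that doxycycline induced Foxa2 in cells with T promoter activity. All cultures received 10 ng/ml bFGF and the Wnt pathway activator CHIR99021, the latter from day 2 to day 3 for neuromesodermal progenitors (NMP diff cells) and from day 2 to day 4 for MP diff cells and NotoP diff cells. Only NotoP diff cultures received doxycycline, at 1 ng/ml from day 2 to day 4. NotoP diff RNA came from cells sorted as Noto- and T-positive, and RNA of MP diff cells and NMP diff cells from those sorted as T-positive and Noto-negative. Both ChIP-seq libraries came from unsorted cultures with the NotoP diff treatment, so bound sites and RNA were not measured in the same sorted cells. Ratios were taken only within the embryo or within culture, because the embryonic and the cultured libraries were sequenced on different instruments.

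RNA levels are given as FPKM, fragments per length of transcript and sequencing depth, which keep no read counts, so no counting error can be given for a gene. The labels were checked against marker genes. *Noto* stood at 152 and 164 FPKM in NotoPs at E8.5 and E9.5, at 22.5 in NotoP diff cells and at 27.5 and 20.8 in trunk notochord, and was listed at 0 in both MP libraries and in MP diff cells. *Foxa2* stood at 95.5 FPKM in NotoP diff cells and 1.22 in MP diff cells. The value in NotoP diff cells cannot be split into endogenous *Foxa2* and the transgene. *T* stood at 375 FPKM in NotoP diff cells, 25.8 in MP diff cells and 406 in NMP diff cells. Of the other NMP diff markers, *Nkx1-2* was the highest of the cultures there (41.5 FPKM, against 19.2 in NotoP diff cells and 7.13 in MP diff cells). *Sox2* was the lowest of the cultures there (1.07, against 9.24 and 3.49), so it went against the NMP diff label. The presomitic gene *Tbx6* was highest in MPs at E9.5 (67.2 FPKM) but also stood at 44 in NotoPs at E8.5 and 21.3 in NotoP diff cells, so it did not separate these groups, whereas it was listed at 0 in trunk notochord. *Pou5f1*, a pluripotency gene, was at 269 FPKM in NMP diff cells, 10.7 in NotoP diff cells and 13.1 in MP diff cells. The endoderm gene *Sox17* was at 7.46 FPKM in NotoP diff cells and 0.545 in MP diff cells, and in the embryo at 3.58 in NotoPs and 5.37 in MPs at E8.5 and listed at 0 in the other 4 libraries. The E8.5 MP library listed 13945 of 23983 genes at 0 (58.1%), the most of the 9 libraries. Of the 6 embryonic libraries it was made from the fewest cells and had the fewest mapped reads, and the part of input and depth in the E8.5 values was not tested.

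The distance rule admitted summits up to 5000 bp from a 5′ end. Within it, the median distance from summit to the nearest 5′ end was 2341 bp, and 292 peaks (18.1%) had their summit within 1000 bp. In all, 799 peaks lay upstream and 810 downstream, but close to the 5′ end more lay upstream, 51 against 21 within 250 bp and 44 against 14 between 250 and 500 bp. Peak density per 1000 bp of distance was lowest between 250 and 500 bp (232) and highest between 1000 and 2000 bp (391), with 288 within 250 bp. Introns held 782 summits (48.6%, 95% interval 46.2 to 51%), the space between genes 718 (44.6%), noncoding parts of exons 100 (6.22%) and coding exons 9 (0.559%). All intervals of percentages are Wilson intervals, those of differences Newcombe intervals, and they cover counting error only, since neighbouring peaks and genes are not independent replicates. At T-only promoter peaks, 881 of 5484 T-only peaks (16.1%), 22% of summits lay in noncoding parts of exons and 31.2% in introns. Of the 1609 Foxa2 peaks, 1449 had 1 gene within reach, 150 had 2 and 10 had 3, and 56 genes had 2 peaks.

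Fold enrichment at the summit, the ratio of ChIP signal to the background estimated by the peak caller, had a median of 6.66 and ranged from 2.15 to 22.8. Foxa2-only peaks away from promoters, 19683 in number, had a median of 7.1 (7.07 to 7.2) against 6.44 to 6.92 at promoters. The 130 promoter peaks of Foxa2 that overlapped T had a median of 8.22. No control library was named for the peak calls. The lowest −log10 q of a member peak was 1.03, and 1372 of the 1609 member peaks remained at q of at most 0.001, so some calls are weak. Enrichment was lowest closest to genes, with medians of 5.26 within 250 bp and 7.2 between 3000 and 4000 bp.

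The strongest peak, with an enrichment of 22.8, lay 2467 bp upstream of *Klf5*, which encodes a Krüppel-like transcription factor of epithelia and pluripotent cells (chr14:99295957-99296503, between genes). *Klf5* stood at 54.9 FPKM in NMP diff cells, 12.5 in NotoP diff cells and 10.4 in MP diff cells, and at 15.9 and 2.99 in NotoPs but 0 in trunk notochord at both stages. Of the 3 cultures, NMP diff cells thus had the highest value. Next came *Gm8257* (21.4) and *Gm9732* (21.1), which had no matched entry in the RNA table, and then *Hoxc13* (20.8; chr15:102917460-102917921, 3425 bp upstream). *Hoxc13*, a posterior Hox gene, did not pass 1.32 FPKM in any library. The microtubule-associated protein gene *Map10* had 2 peaks, of 12.9 and 20.8, the stronger in a noncoding part of an exon, and stood at 1.83 FPKM in NotoP diff cells. *Cgrrf1* (20.4), *Pkd1l1* (20.4, no matched entry), *9430038I01Rik* (19.7), the chromatin remodelling subunit gene *Ino80d* (19.6) and *BC024139* (19.4) completed the 10 strongest. *Cgrrf1* and *Ino80d* were at 10.5 and 11.3 FPKM in NotoP diff cells and at 8.68 and 9.37 in MP diff cells, and *BC024139* was listed at 0 in 8 of the 9 libraries. None of the genes of these 10 peaks with an entry in the table passed a 3-fold difference between NotoP diff cells and MP diff cells.

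Just inside the distance limit were peaks of *Tapt1* at 4991 bp, *Myb* at 4998 bp and *Col9a1* at 5000 bp, with enrichments of 11, 4.61 and 6.43, and just outside were peaks of *Gm10563* at 5004 bp, *Smap1* at 5008 bp and *Cpne2* at 5013 bp, with 4.9, 5.7 and 7.07. On the T side, the nearest miss was a peak at *Cd300e* with a gap of 18 bp to a T peak. A T peak lay within 500 bp of 15 member peaks, within 1000 bp of 25 and within 5000 bp of 107.

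The sequence at the summits was poorer in CpG than 5′ ends and richer than distal peaks. Median GC content over 301 bp was 41.5% at member peaks, 39.9% at Foxa2-only distal peaks, 44.2% at positions 10000 bp away from the member summits, 52.8% at T-only promoter peaks and 57.8% at all protein-coding 5′ ends. A window counted as CpG-rich with at least 50% GC and an observed over expected CpG ratio of at least 0.6. This applied to 65 member peaks (4.04%, 3.18 to 5.12%), 40.5% of T-only promoter peaks and 47.5% of all 5′ ends, but 0.173% of Foxa2-only distal peaks and 0.87% of the shifted positions. The median observed over expected ratio was 0.201 at member peaks, 0.161 at distal peaks, 0.175 at the shifted positions and 0.589 at 5′ ends. Within 250 bp of a 5′ end, 38 of 72 member peaks (52.8%) were CpG-rich, and beyond 1000 bp under 1% in each distance class. Summits in annotated repeats, marked in lower case in the reference genome, numbered 594 (36.9%, 34.6 to 39.3%). The share was 44.8% at Foxa2-only distal peaks, 9.66% at T-only promoter peaks and 29% at positions 10000 bp away from the member summits. It rose with enrichment, from 28.3% in the 403 weakest to 44.9% in the 401 strongest peaks. Mitochondrial sequence was not read, so the composition and motif counts cover 126 of the 130 shared and 880 of the 881 T-only promoter peaks, and 21938 of 21951 5′ ends.

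Forkhead motifs were searched as TGTTTAC or TATTTAC, on both strands, within 50 bp of the summit. They were found at 342 member peaks (21.3%, 19.3 to 23.3%). The share was 17.6% at Foxa2-only distal peaks (difference 3.66 points, 1.65 to 5.79), 24.6% at promoter peaks shared with T, 6.02% at T-only promoter peaks (difference 15.2 points, 12.6 to 17.7), 3.23% at positions 10000 bp away and 1.34% at all 5′ ends. Foxa2 binding was used to choose the peaks, so the difference from T-only promoter peaks is a description of the selection. Of the RefSeq promoters of GRCm38, 300 bases each, 6.54% held the same letters. The median distance of the nearest match from the summit was 16 bp, and 213 of the 342 (62.3%) lay within 20 bp. TGTTTAC was present at 12.1% and TATTTAC at 10.1% of member peaks, and the related TGTTTGC or TATTTGC at 15.9%, against 3.05% at the shifted positions. By enrichment, with the peaks split into 4 classes, the share with TGTTTAC or TATTTAC was 14.9% in the lowest (11.7 to 18.7%) and 22.8, 23.4 and 23.9% in the others. Of the 10 strongest peaks, 9 lacked these letters.

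Other motifs were less common. The T-box letters AGGTGTGA occurred at 5 member peaks (0.311%), at 2.73% of T-only promoter peaks, and at 0.497% of the shifted positions. T binding was used to choose the peaks, so this is a description of the selection. CATTGTT, bound by Sox factors, occurred at 3.23% of member peaks and 1.49% of shifted positions (difference 1.74 points, 0.842 to 2.79). The octamer ATGCAAAT, bound by POU factors such as Oct4, occurred at 1.49 and 0.653% (difference 0.839 points, 0.243 to 1.59). The letters CTTTGAT of TCF and LEF factors were present at 2.11% of member peaks and 1.62% of shifted positions. For the letters AGATAA of zinc finger factors such as Gata4 the shares were 6.15 and 5.69%, and for the AP-1 letters TGACTCA 1.62 and 1.34%, all with differences whose intervals include 0. The TEAD letters CATTCC occurred at 3.67% of member peaks and 5% of shifted positions (difference -1.34 points, -2.48 to -0.0868). At Foxa2-only distal peaks the Sox, octamer and TEAD letters occurred at 2.59, 1.32 and 3.23%. The intervals of their differences from member peaks all include 0, so these shares were not particular to peaks at promoters. A match is a description of letters and does not show that a factor sat there.

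Of the strongest peaks with a forkhead motif, 5 are printed to show how the motif sits at the summit, which is the middle base of each 151-base window (GRCm38, plus strand). Capitals mark TGTTTAC or TATTTAC, or the reverse complement of either. Of these peaks, 3 lie in introns of *9430038I01Rik* (chr7:137409116-137409266, 1571 bp downstream of the 5′ end), of *Plscr1*, a phospholipid scramblase gene (chr9:92251984-92252134, 2309 bp downstream) and of *Csrnp1* (chr9:119980028-119980178, 4555 bp downstream). The other 2 lie between genes, upstream of the olfactory receptor gene *Olfr26* (chr9:38852148-38852298, 2837 bp) and of *Ift57*, a component of intraflagellar transport (chr16:49695085-49695235, 4073 bp). Their enrichments were 19.7, 19.2, 19.1, 17.1 and 16.9. In the *Csrnp1* window the same short stretch recurs in near copies, and both of its matches lie in such copies.
9430038I01Rik: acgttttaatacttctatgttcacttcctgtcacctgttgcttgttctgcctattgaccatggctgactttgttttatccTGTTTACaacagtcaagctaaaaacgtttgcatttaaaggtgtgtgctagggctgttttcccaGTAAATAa
Plscr1: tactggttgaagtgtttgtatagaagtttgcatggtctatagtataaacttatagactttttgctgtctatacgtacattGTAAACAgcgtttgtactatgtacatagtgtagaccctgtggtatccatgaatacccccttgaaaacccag
Csrnp1: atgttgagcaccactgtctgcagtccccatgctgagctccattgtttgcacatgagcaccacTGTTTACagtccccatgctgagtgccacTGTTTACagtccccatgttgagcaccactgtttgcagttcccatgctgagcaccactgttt
Olfr26: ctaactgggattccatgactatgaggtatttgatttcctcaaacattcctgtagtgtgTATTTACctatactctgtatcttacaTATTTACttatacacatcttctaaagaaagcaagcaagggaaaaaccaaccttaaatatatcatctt
Ift57: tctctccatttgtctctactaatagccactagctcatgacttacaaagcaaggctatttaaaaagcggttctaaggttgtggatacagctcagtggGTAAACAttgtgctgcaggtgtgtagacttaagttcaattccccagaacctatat

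Member genes were more often expressed than protein-coding genes as a whole, in every library. In NotoP diff cells, their median was 4.54 FPKM (3.65 to 5.5) against 2 over all, and 1080 of 1646 (65.6%, 63.3 to 67.9%) reached 1 FPKM against 55.5%. The corresponding shares were 59.5 and 52.6% in MP diff cells, 61.2 and 53.8% in NMP diff cells, 61.1 and 52% in NotoPs at E8.5, 52.6 and 45.2% in MPs at E8.5, 60.9 and 52.7% in NotoPs at E9.5, 58 and 50.6% in MPs at E9.5, 62.8 and 53.7% in trunk notochord at E8.5, and 60.9 and 51.6% in trunk notochord at E9.5. The higher share was thus also seen in cells with almost no *Foxa2* RNA. It was not particular to Foxa2-only peaks. In NotoP diff cells, 76.2% of the 866 genes with a T-only promoter peak and no Foxa2 peak reached 1 FPKM (median 7.86), as did 73.6% of the 121 with a promoter peak shared by both factors (7.51) and 53.4% of genes with neither (1.57). In all 9 libraries, 740 member genes (45%) reached 1 FPKM against 37.4% of all genes, while 187 (11.4%) were listed at 0 throughout against 20%. Read the other way, 5.51% of the 5589 genes listed at 0 in NotoP diff cells had a member peak, compared with 10.5% of the 5337 genes between 10 and 100 FPKM.

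Levels differed with the type of 5′ end. The 976 member genes with a CpG-rich 5′ end had a median of 11 FPKM in NotoP diff cells, and the 670 others a median of 0.179. A member peak was present at 9.61% (9.06 to 10.2%) of all genes with a CpG-rich 5′ end and at 6.53% (6.07 to 7.03%) of the others. With genes split into 4 classes by enrichment, the medians were 6.28, 5.77, 3.15 and 3.72 FPKM from the lowest to the highest class. The highest levels in NotoP diff cells belonged to genes active in many cell types. *Nedd4*, a ubiquitin ligase gene, was at 518 FPKM, the transcription factor gene *Btf3* at 485, the 14-3-3 protein gene *Ywhae* at 461, the histone gene *Hist1h3g* at 389 and the ribosomal protein gene *Rps3* at 333. The lowest value of any of these 5 genes in the 9 libraries was 177 FPKM, for *Rps3* in trunk notochord at E9.5. *Grb10*, an imprinted adaptor gene with a peak of 18.4 at 250 bp upstream, was at 320 FPKM in NotoP diff cells, 150 in MP diff cells and 123 in NMP diff cells.

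Of the member genes, 61 were at least 3-fold higher in NotoP diff cells than in MP diff cells and 12 at least 3-fold lower, computed after adding 1 to each FPKM value. The shares were 3.71% (2.9 to 4.73%) and 0.729% (0.418 to 1.27%), against 1.76% and 0.461% of all protein-coding genes. The counts depended on the value added. With 0.1 they were 191 and 38 (11.6%, 10.1 to 13.2%, and 2.31%, 1.69 to 3.15%), against 7.04 and 2.61% of all genes, so that the share of lower genes was then below that of all genes, and with 5 they were 15 and 6 (0.911%, 0.553 to 1.5%, and 0.365%, 0.167 to 0.793%), against 0.426 and 0.122%. For higher genes, the difference from genes without a member peak was 2.11 points (1.28 to 3.15), and for lower genes 0.292 points (-0.0367 to 0.84). Since these are bulk samples, fewer cells of a type and less RNA per cell cannot be told apart. The median log2 ratio was 0.00 (0.00 to 0.04) over member genes and 0.00 over all, values that include many genes at or near 0 in both cultures. Where the mean over the 9 libraries reached 1 FPKM, it was 0.11 (0.07 to 0.15) for 1067 member genes and 0.02 (0.01 to 0.03) for all 11408. Viewed from the RNA, 16.9% of the 360 higher genes and 12.8% of the 94 lower genes had a member peak, as did 8.07% of all genes. Expression level was compared in 4 bands of the mean over the 9 libraries. Below 1 FPKM, 7 of 579 member genes (1.21%, 0.587 to 2.47%) and 0.309% of 8422 others (0.211 to 0.452%) were higher. From 1 to 10 FPKM it was 33 of 470 (7.02%, 5.04 to 9.7%) and 3.38% of 4975 (2.91 to 3.92%). From 10 to 100 FPKM the intervals overlapped, with 20 of 545 (3.67%, 2.39 to 5.6%) and 2.07% of 4876 (1.71 to 2.51%), as they did above 100 FPKM, with 1 of 52 (1.92%, 0.34 to 10.1%) and 0.816% of 490 (0.318 to 2.08%).

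The largest ratio was that of *Sepp1*, which encodes the selenium carrier selenoprotein P. It stood at 224 FPKM in NotoP diff cells, 5.76 in MP diff cells and 3.88 in NMP diff cells, a log2 ratio of 5.06 over MP diff cells, with an intronic peak 2095 bp downstream of its start (enrichment 5.01). In the embryo it stood at 118 and 55.8 FPKM in NotoPs and at 12.8 and 3.38 in MPs. Next came *Krt8*, an intermediate filament gene of simple epithelia and notochord (181 against 11.8 FPKM), *Prox1*, a homeobox gene of lymphatic, liver and neural development (29.1 against 1.17), and *Krt19* (30.7 against 1.68). The notochord homeobox genes *Mnx1* and *Lmx1a* followed with 10.2 against 0.0896 and 9.31 against 0.013 FPKM. *Ddx58*, which encodes the RNA sensor RIG-I, had 21.7 against 1.29 FPKM. *Moxd1*, a monooxygenase-like gene, stood at 12.7 against 0.494, the co-chaperone gene *Dnajc12* at 40.3 against 3.55, the secreted guidance cue gene *Sema3e* at 15.8 against 0.969, and *Samd3* at 22.1 against 1.72 FPKM. *Krt7* was at 6.51 FPKM in NotoP diff cells and listed at 0 in MP diff cells. The peaks of these 12 genes ranged in enrichment from 3.49 at *Ddx58* to 16 at *Moxd1*, all below the 10 strongest.

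Among the 12 lower genes, *Id2* had the largest difference, with 2.14 FPKM in NotoP diff cells and 64.6 in MP diff cells (log2 ratio -4.38). *Id2* and *Id3* (31 against 167 FPKM) encode inhibitors of basic helix-loop-helix factors and are known targets of BMP signalling. They were joined by *Hs3st3b1*, a heparan sulphate sulphotransferase gene (1.9 against 21.1), by 4 *Hoxd* genes, by *Meis1*, a Hox cofactor gene (2.8 against 17.6), and by the imprinted gene *Peg3* (43.1 against 172). The others were *Daam2*, *Sgk1* and *Phlda2*. None of the 12 had its nearest summit within 1000 bp, a class of 300 member genes, and the share of lower genes there (0%, up to 1.26%) and beyond (0.892%, 0.511 to 1.55%) had overlapping intervals. In trunk notochord at E8.5 and E9.5, *Meis1* stood at 25.6 and 12.8 FPKM and *Id2* at 55.3 and 59.8, above NotoPs of the same stages (2.25 and 2.89, and 17.8 and 9.62).

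Compared with NMP diff cells, 51 member genes were at least 3-fold higher in NotoP diff cells (3.1%, 2.36 to 4.05%) and 18 lower (1.09%, 0.693 to 1.72%), against 1.47% and 0.862% of all genes. With 0.1 added they were 153 and 65 (9.3 and 3.95%, against 5.55 and 4.3%), again with the share of lower genes below that of all genes, and with 5 added 13 and 9 (0.79 and 0.547%, against 0.407 and 0.284%). This comparison shares the NotoP diff library with the previous one, so the values are given side by side. *Sepp1* (log2 ratio 5.52), *Samd3* (4.30), *Mnx1* (3.32), *Scara3* (3.26), *Lmx1a* and *Dnajc12* (3.25 each) and *Ptch1* (3.07) were among the higher genes, with 5.06, 3.09, 3.36, 2.09, 3.35, 3.18 and 2.24 over MP diff cells. *Krt8* and *Krt19* had 1.44 and 0.59 over NMP diff cells, in which they stood at 66.1 and 20.1 FPKM. The lower genes included *Nanog* (1.54 against 21.8 FPKM), the Nodal antagonist gene *Lefty2* (2.95 against 21.5), *Klf5*, the neural and gastrulation gene *Zic2* (13.5 against 54.6), the mesendoderm gene *Mixl1* (55.3 against 214) and *Asns*, for asparagine synthetase (37.2 against 244). The peaks of *Nanog*, *Lefty2* and *Mixl1* were weak, with enrichments of 3.5, 3.72 and 3.82.

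In the embryo, 197 member genes were at least 3-fold higher in NotoPs than in MPs at E8.5 (12%, against 9.8% of all genes) and 69 lower (4.19%, against 4.38%). At E9.5, 64 were higher (3.89%, against 2.84%) and 17 lower (1.03%, against 1.15%). The E8.5 counts rest on the MP library with the most zeros, so the rule of both stages was used for the genes named. It gave 36 higher genes (2.19%, 1.58 to 3.01%, against 1.46%) and 3 lower genes (0.182%, against 0.255%). With 0.1 added these were 91 and 14 (5.53%, 4.52 to 6.74%, and 0.851%, against 4.32 and 0.872%), and with 5 added 16 and 0 (0.972% and 0%, against 0.397 and 0.0392%). The difference from other genes was 0.796 points (0.167 to 1.64) for the higher genes. Ranked by the smaller of the ratios at the 2 stages, the first were *Samd3* (112 and 133 FPKM in NotoPs, listed at 0 in MPs at both stages), *Lmx1a* (45.2 and 42.8, listed at 0 in MPs) and *Moxd1* (22.3 and 19.2, listed at 0 in MPs). *Krt19* stood at 96.1 and 160 FPKM in NotoPs and 5.67 and 1.66 in MPs, *Sema3e* at 34.8 and 23.5 against 0 and 0.866, and *Mgst3*, a glutathione transferase gene, at 25.4 FPKM at E9.5 and listed at 0 in MPs. The adenylate cyclase gene *Adcy8* had 15.9 and 10.8 FPKM in NotoPs, where MPs had 0 and 0.0923. In culture (1.54 against 0.492) it did not pass 3-fold after 1 was added to each value. The 3 lower genes were *Gas1*, a Hedgehog co-receptor gene (3.31 and 1.03 against 13.3 and 14.2), *Meis1* (2.25 and 2.89 against 12.4 and 11) and *Zic2* (0.954 and 0.868 against 15.7 and 5.09).

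Of the 61 genes higher in culture, 17 (27.9%) were also higher at both stages in the embryo, which is 47.2% of the 36. Over all protein-coding genes, the overlap was 105 of the 360 higher in culture (29.2%, 24.7 to 34.1%) and 35.4% of the 297 higher in the embryo, so the share of the 61 was close to that of all genes. Of all genes, 0.514% were higher in both systems and 0.049% lower. The 17 comprised the keratin genes *Krt8* and *Krt19*, the homeobox genes *Mnx1*, *Lmx1a* and *Pou4f1*, *Ptch1*, *Sema3e*, *Sepp1*, *Samd3*, *Moxd1*, *Ddx58*, *Mgst3*, the scavenger receptor gene *Scara3*, the actin-bundling gene *Pls1*, the adhesion receptor gene *Gpr56*, the deacetylase gene *Hdac11* and the palmitoyltransferase gene *Zdhhc1*. *Meis1* was the gene lower in both, and no member gene differed in opposite directions between culture and both embryonic stages. *Hdac11* and *Zdhhc1* carried strong peaks, of 15.7 and 13.9, at 18.9 and 4.13 FPKM in NotoPs at E8.5. In contrast, *Prox1*, next after *Sepp1* and *Krt8* by ratio in culture, stood at 17.6 FPKM in NotoPs and 13.2 in MPs at E8.5, and at 8.87 and 0.995 at E9.5.

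Trunk notochord was compared with NotoPs as the more mature tissue. At both stages, 30 member genes were at least 3-fold higher in trunk notochord (1.82%, 1.28 to 2.59%, against 0.931%) and 21 lower (1.28%, 0.836 to 1.94%, against 1.06%). The trunk libraries were made from fewer cells and had fewer mapped reads than those of NotoPs. At E8.5 and E9.5 they listed 48.9 and 51.7% of genes at 0, against 47.5 and 45.2% in NotoPs, and the part of input and depth was not tested. Endoderm genes differed between these libraries too. Of 25, 19 reached 1 FPKM in trunk notochord at E8.5 (sum 262 FPKM, most abundant *Rbp4* at 47.3) and 13 in NotoPs (276, *Cdx2* at 126). At E9.5 it was 11 (184, *Afp* at 95.7) and 7 (201, *Cdx2* at 107). The sums include the mesendoderm gene *Mixl1*, at 61 and 44.7 FPKM in NotoPs and 0 in trunk notochord. Single genes make up much of the sums, so these are no measure of endoderm cells. *Sox17* was listed at 0 in trunk notochord at both stages, and *Foxa3* stood at 4.31 and 1.17 FPKM there and at 4.16 and 0.316 in NotoPs. The part of endoderm cells in the differences was not tested. The higher genes included *Spp1*, for the matrix protein osteopontin (44.9 and 46.9 FPKM against 0.664 and 0.453), the kinase gene *Pkdcc* (25.1 and 18.4 against 0.384 and 0), *Col9a1*, a cartilage collagen gene (37.6 and 101 against 5.48 and 6.03), the receptor gene *Fgfr2* (17.6 and 13.6 against 1.75 and 0.53) and the calpain-like gene *Capn6* (44.6 and 53.5 against 3.72 and 4.17). *Ttr*, for the carrier transthyretin, which is abundant in visceral endoderm and liver, stood at 36 and 23.4 FPKM and was listed at 0 in NotoPs. *Susd5* and *Masp1* followed with 15.9 and 38.7, and 16.8 and 13.8 FPKM. *Spp1*, *Ttr*, *Col9a1* and *Fgfr2* stayed below 1 FPKM in NotoP diff cells. The lower genes included the growth factor gene *Fgf8* (listed at 0 in trunk notochord, 52.6 and 54.4 in NotoPs), *Mixl1* (0 against 61 and 44.7), *Ifitm1* (12.5 and 3.52 against 142 and 115), *Hoxd8* and *Lef1*. In culture, *Fgf8* stood at 17 FPKM in NotoP diff cells, 17.6 in MP diff cells and 36.6 in NMP diff cells, under a peak of 14.8.

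Among notochord and node genes, 8 of 30 had a member peak (26.7%, 14.2 to 44.4%), compared with 8.07% of all genes. The list holds genes that were described from these libraries, so its direction is not independent evidence. The 8 were *Mnx1*, *Lmx1a*, *Krt8*, *Krt19*, *Samd3*, *Moxd1*, *Fn1* and *Ptch1*. All except *Fn1* were at least 3-fold higher in NotoP diff cells than MP diff cells, and 7 were higher in NotoPs at both stages, again without *Fn1*. Of the whole list, 25 and 23 of 30 met these rules. *Fn1*, the fibronectin gene, was at 254 FPKM in NotoP diff cells and 477 in MP diff cells. None of the 24 paraxial mesoderm and somite genes had a member peak (0%, up to 13.8%).

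Of 25 definitive endoderm and gut genes, 6 had a member peak (24%, 11.5 to 43.4%). *Foxa3*, a paralogue of *Foxa2*, and *Gata4* are transcription factor genes of gut and liver, and their peaks lay 1983 and 4308 bp upstream. They stood at 0.788 and 0.56 FPKM in NotoP diff cells. None of the 6 passed 3-fold in culture after 1 was added to each value, and 1 of them, *Mixl1*, was higher in NotoPs at both stages. Of the whole list, 5 were higher and 0 lower in culture, and 2 were higher and 0 lower in NotoPs at both stages. In NotoP diff cells 13 of the 25 reached 1 FPKM, with a sum of 356 FPKM and *Cldn6* the most abundant (126), and in MP diff cells 10, with a sum of 124 and *Cdx2* the most abundant (47). The sums include the mesendoderm gene *Mixl1*, at 55.3 and 26.8 FPKM in these cultures. The part of endoderm cells in the differences between the cultures was not tested. Of 44 forkhead genes, *Foxa3*, *Foxd4*, *Foxl1*, *Foxp1*, *Foxp2* and *Foxp4* had a member peak (13.6%, 6.4 to 26.7%, against 8.07% of all genes). Of the whole forkhead list, 4 were higher and 2 lower in culture. *Foxp4* was at 18.9 and 26.8 FPKM in NotoPs and 3.91 and 2.41 in MPs, with 21.7 in NotoP diff cells and 8.27 in MP diff cells, and *Foxp1* stood at 23.2 and 19.3 in these cultures.

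In the Hedgehog pathway, 4 of 18 genes had a member peak (22.2%, 9 to 45.2%, against 8.07% of all genes). Of the whole list, 3 were higher and 0 lower in culture, and 3 were higher and 1 lower in NotoPs at both stages. *Ptch1* encodes the receptor and is a transcriptional target of the pathway. Its summit lay 27 bp from the 5′ end (chr13:63573427-63573789, noncoding part of an exon, enrichment 4.98), and its RNA stood at 112 FPKM in NotoP diff cells and 23 in MP diff cells, at 150 and 86 in NotoPs, and at 189 and 136 in trunk notochord. *Hhip*, for a ligand-binding antagonist, had 2 peaks of 5.91 and 4.98, each with a forkhead motif. It was at 0.745 FPKM in NotoP diff cells, and at 2.18 and 12.6 in trunk notochord at E8.5 and E9.5. The effector gene *Gli3* was at 22.4 against 40.4 FPKM. *Gas1*, lower in NotoPs at both stages, had a peak of 12.6.

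Of 45 BMP and Nodal pathway genes, 6 had a member peak (13.3%, 6.26 to 26.2%, against 8.07% of all genes). The 2 that passed 3-fold in culture, *Id2* and *Id3*, were lower. Of the whole list, 7 were higher and 4 lower in culture. *Bmp5*, for a BMP ligand, had its summit 17 bp from the 5′ end and was at 9.21 FPKM in NotoP diff cells, 4.83 in MP diff cells and 0.269 in NMP diff cells. In NotoPs it stood at 19.8 and 3.82 FPKM, against 0 and 0.181 in MPs. The receptor gene *Bmpr1a* and the effector gene *Smad2* were at 35.2 and 13.9 FPKM in NotoP diff cells and 40.5 and 15.4 in MP diff cells. Of 61 Wnt pathway genes, 7 had a member peak (11.5%, 5.67 to 21.8%) and none of these passed 3-fold in culture. Of the whole Wnt list, 2 were higher and 2 lower. *Ctnnb1*, for β-catenin, was at 230 against 181 FPKM, *Lef1* at 97.4 against 205 and *Znrf3*, for a ubiquitin ligase that removes Wnt receptors, at 9.64 against 10.8. Of 31 FGF pathway genes, 6 had a member peak (19.4%, 9.19 to 36.3%), and none of these passed 3-fold in culture. Among them were *Fgf8*, *Fgfr2* and the feedback inhibitor genes *Spry1* and *Spry4* (7.63 and 12.2 FPKM in NotoP diff cells). Of the whole FGF list, 2 were higher and 1 lower in culture. Of 27 Notch pathway genes, 1 had a member peak (3.7%, 0.657 to 18.3%), *Dll4*, with an enrichment of 15 and 0.141 FPKM in NotoP diff cells. Of the whole Notch list, 2 were higher and 1 lower in culture.

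Epithelial junction and keratin genes with a member peak numbered 7 of 42 (16.7%, 8.32 to 30.6%, against 8.07% of all genes). Of the 7, 5 were higher in NotoP diff cells than MP diff cells. These were *Krt8*, *Krt19*, *Krt7*, the desmosomal cadherin gene *Dsc2* (12.6 against 2.44 FPKM) and *Grhl1*, a grainyhead factor gene (2.09 FPKM, listed at 0 in MP diff cells). Of the whole list, 17 of 42 were higher and 0 lower in culture. Of 36 guidance genes, 5 had a member peak (13.9%, 6.08 to 28.7%). *Sema3e* and the ephrin receptor gene *Epha7* (19.5 against 5.01 FPKM) were higher, and the plexin genes *Plxna1* and *Plxnb1* were at 33.1 against 23.9 and 12.8 against 7.51. Of the whole list, 7 were higher and 3 lower in culture. Of 40 matrix and integrin genes, *Col9a1* and *Fn1* had a member peak (5%, 1.38 to 16.5%). Of the whole matrix list, 4 were higher and 1 lower in culture.

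Hox genes with a member peak numbered 6 of 39 (15.4%, 7.25 to 29.7%, against 8.07% of all genes). Of the 6, 4 were at least 3-fold lower in NotoP diff cells than MP diff cells, against 10 in the whole list. A single peak at chr2:74708661-74708962, with an enrichment of 10.3, lay 3086 bp upstream of *Hoxd3*, 3088 bp upstream of *Hoxd4* and 4226 bp downstream of the 5′ end of *Hoxd8*, so these 3 genes share 1 region. *Hoxd3*, *Hoxd4* and *Hoxd8* stood at 2.16, 1.43 and 1.39 FPKM in NotoP diff cells and at 17.7, 15 and 7.03 in MP diff cells. *Hoxd1*, with a peak of its own of 11.4, was at 1.44 against 14.1 FPKM. In NMP diff cells none of the 4 passed 0.327 FPKM. In NotoPs at E8.5, *Hoxd3*, *Hoxd4*, *Hoxd8* and *Hoxd1* stood at 4.55, 14, 14.3 and 7.09 FPKM, against 15.2, 40.6, 40.5 and 76.7 in MPs, and *Hoxd1* was lower by 3-fold (log2 ratio -3.26). At E9.5 they stood at 16.9, 29.4, 49.3 and 11.1 FPKM, against 19.7, 53.1, 35.5 and 27.3 in MPs, and none was lower by 3-fold at both stages. Of the whole list of 39, 4 were lower at both stages.

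In 7 other lists, the share with a member peak lay between 4.55 and 11.1%, against 8.07% of all genes. They included 2 of 18 caudal progenitor genes (*Wnt8a* and *Fgf8*; 11.1%, 3.1 to 32.8%), 2 of 19 pluripotency genes (*Nanog* and *Lefty2*; 10.5%, 2.94 to 31.4%) and 3 of 39 cilium genes (*Dnah2*, *Ift57* and *Kif3b*; 7.69%, 2.65 to 20.3%). Others were 1 of 22 neural tube genes (*Nkx2-2*), 1 of 18 blood and endothelial genes (*Runx1*), 1 of 19 Sox genes (*Sox12*) and 2 of 42 cell cycle genes (*Mcm7* and *Bub1*). None of these members passed 3-fold between NotoP diff cells and MP diff cells after 1 was added to each value. For *Nanog*, at 1.54 against 0.216 FPKM, this depended on the value added. Of the whole lists, 5 cilium genes, 3 Sox genes and 2 pluripotency genes were higher and 0 lower, 1 caudal, 1 blood and 1 cell cycle gene were higher and as many lower, and 1 neural tube gene was lower. *Nkx2-2*, a floor plate and ventral neural gene, had a peak of 14.1 with a forkhead motif. It stood at 0.143 FPKM in NotoP diff cells, and at 1.62 and 7.02 in trunk notochord at E8.5 and E9.5. Of 81 ribosomal protein genes, *Rpl36al* and *Rps3* had a member peak (2.47%, 0.68 to 8.56%), at 192 and 333 FPKM in NotoP diff cells. Of 80 histone genes, 8 had one (10%, 5.15 to 18.5%), and *Hist1h2ap* was higher in NotoP diff cells (33 against 4.42 FPKM). Of the whole histone list, 1 was higher and 1 lower in culture. The housekeeping genes *B2m* and *Tfrc*, 2 of 15 (13.3%, 3.74 to 37.9%), were at 39.4 and 43.5 FPKM against 38.4 and 46.9.

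The presence of a T peak elsewhere in the same promoter region marked a small group of member genes. Of 1646, 107 also had a T peak within 5000 bp of their 5′ end, apart from the member peak. Of these, 10 were higher in NotoP diff cells than MP diff cells (9.35%, 5.16 to 16.4%), compared with 51 of the 1539 member genes without a T peak (3.31%, 2.53 to 4.33%). The 10 were *Mnx1*, *Moxd1*, *Samd3*, *Camk1d*, *Rprm*, *Ptch1*, *Pls1*, *Scara3*, *Tle1* and *Ptpn14*. Genes at a Foxa2 promoter peak that overlapped T were higher in 15 of 121 cases (12.4%, 7.66 to 19.4%), genes with a T peak and no Foxa2 peak in 2.54% and genes with neither in 1.48%. Of the genes with a member peak, 12 also had a Foxa2 promoter peak that overlapped T, so these groups are not fully separate. At both embryonic stages, 7 of the 107 (6.54%, 3.2 to 12.9%) and 29 of the 1539 (1.88%, 1.32 to 2.69%) were higher in NotoPs, as were 3 of the 121 whose Foxa2 peak overlapped T (2.48%, 0.847 to 7.04%), 2.77% of genes with a T peak and no Foxa2 peak and 1.32% with neither. Since median levels differed as well, 12.3 against 4.02 FPKM in NotoP diff cells, the shares are given as a description, and the part of expression level in them was not tested.

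Other properties of the peak were compared in the same way, first for genes higher in culture. The share of genes higher in NotoP diff cells was 3.67% with the nearest summit within 1000 bp and 3.71% beyond, 3.75% upstream and 3.66% downstream, and 3.64, 3.16, 3.4 and 4.62% from the lowest to the highest of the 4 classes of enrichment, with overlapping intervals. It was 3% (1.68 to 5.29%) for the 367 genes with a forkhead motif at a member summit and 3.91% (2.98 to 5.12%) for the 1279 others, whose median levels in NotoP diff cells were 7.02 and 3.65 FPKM. It was 3.89% with a CpG-rich 5′ end and 3.43% without, against 2.07 and 1.46% over all such genes. For genes lower in culture, the shares were 1.05% (0.555 to 1.99%) upstream and 0.379% (0.129 to 1.11%) downstream. For genes higher at both embryonic stages, they were 2.18% (1.15 to 4.1%), 2.68% (1.5 to 4.73%), 0.728% (0.248 to 2.12%) and 3.16% (1.86 to 5.34%) from the lowest to the highest class of enrichment, 3% within 1000 bp and 2.01% beyond, 1.87% upstream and 2.53% downstream, and 1.91% with a forkhead motif and 2.27% without. None of these differences was tested. Foxa2-only distal peaks within 50000 bp of the 5′ end were present for 841 member genes (51.1%, 48.7 to 53.5%) and 41.2% of all genes. They were present for 40 of the 61 higher genes (65.6%, 53 to 76.3%) and 4 of the 12 lower genes, and for 58.6% of all 360 higher genes.

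A forkhead motif at a member summit was present for 11 of the 61 higher genes (18%, 10.4 to 29.5%) and 1 of the 12 lower genes, against 367 of all 1646 member genes (22.3%). The higher genes with a motif included *Prox1*, *Mnx1*, *Lbh*, *Ptch1* and *Ccn1*. The windows of *Prox1* and *Ptch1* reach into exons and are not printed. Those of *Mnx1*, *Lbh* and *Ccn1*, between genes, are shown as examples of motif-bearing summits at higher genes, although higher genes did not carry the motif more often, in windows of 151 bases (GRCm38, plus strand), with the same letters in capitals. At *Mnx1* (chr5:29479520-29479670, 1125 bp upstream, enrichment 6.46), TATTTAC and the reverse complement of TGTTTAC lie 1 base apart. *Lbh*, for a transcriptional cofactor (chr17:72913964-72914114, 4266 bp upstream, enrichment 8.38), stood at 13.4 FPKM in NotoP diff cells and 1.7 in MP diff cells. In NotoPs and MPs it stood at 1.23 and 0.846 at E8.5, and at 6.09 and 5.37 at E9.5. *Ccn1*, listed as *Cyr61* in the RNA table, encodes a matricellular protein (chr3:145650329-145650479, 423 bp upstream, enrichment 7.81) and stood at 79.4 against 16.2 FPKM.
Mnx1: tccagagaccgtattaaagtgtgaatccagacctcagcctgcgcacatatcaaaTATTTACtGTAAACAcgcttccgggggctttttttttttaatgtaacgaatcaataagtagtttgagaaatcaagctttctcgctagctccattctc
Lbh: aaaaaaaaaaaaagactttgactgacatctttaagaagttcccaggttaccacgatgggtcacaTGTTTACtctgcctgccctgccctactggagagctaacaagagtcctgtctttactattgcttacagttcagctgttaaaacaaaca
Ccn1: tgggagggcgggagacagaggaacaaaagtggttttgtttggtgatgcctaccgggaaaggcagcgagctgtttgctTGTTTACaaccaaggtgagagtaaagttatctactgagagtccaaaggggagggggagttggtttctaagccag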

How the data were processed

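The authors aligned RNA reads to mm10 with TopHat2 2.1.1, removed duplicates by molecular identifiers and deposited FPKM values from Cufflinks 2.2.1 for 23983 genes; all columns were used (0 left out). The authors aligned ChIP reads with Bowtie 1.3.1 and called peaks with MACS3 3.0.0b1. The deposited peak files give the ratio (fold enrichment) at the summit, −log10 p and −log10 q, a score and the summit offset in bp. Peaks, 5′ ends and sequence are GRCm38 (mm10), counted from 1. Log2 ratios were taken after adding 1 to each FPKM value, and a gene past 3-fold was counted as higher or lower. The members and the 23 gene lists were chosen with earlier results of these data known. Named are the genes of the 10 strongest peaks, the 12 highest and 8 lowest log2 ratios past 3-fold in culture, the 6 highest FPKM values in NotoP diff cells, up to 12 genes past 3-fold at both embryonic stages in each direction, genes with 3 or more peaks (0 found), up to 4 per list, those at the distance limit and up to 16 windows. Other genes were named after their values were seen. All steps ran under SciPy 1.17.1, pandas 2.3.3, NumPy 2.4.6 and Python 3.11.15 and were tested on simulated data.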

Additional observations from a re-analysis of the deposited data

Results flagged for a closer look

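The same contrast, NotoPs over MPs, ran in opposite directions at E8.5 and E9.5 for 4 member genes past 3-fold at both stages. Opposite ratios were not counted over all protein-coding genes, so the 4 are described one by one and not as a result about member genes. Of all genes, 9.8% were higher and 4.38% lower at E8.5, and 2.84% and 1.15% at E9.5. With 1 library for each group and stage, the difference between stages was not tested. *Krt7*, a keratin gene of simple epithelia, had a log2 ratio of -2.77 at E8.5 (1.78 FPKM in NotoPs and 18 in MPs) and 4.30 at E9.5 (18.7 FPKM and listed at 0). *Acadl*, for a mitochondrial acyl-CoA dehydrogenase, had log2 ratios of 2.73 (14.5 FPKM in NotoPs and 1.33 in MPs) and -1.85 (3.64 and 15.7). *Sh3bgr* had 1.95 (2.86 and listed at 0) and -1.62 (listed at 0 and 2.08), and *Tmem256* had 3.29 (8.75 and listed at 0) and -1.71 (4.48 and 17). The E8.5 MP library listed the most genes at 0, and the E8.5 ratios of 2 of the 4 genes, *Sh3bgr* and *Tmem256*, rest on such a value. That library also held RNA of endoderm genes. *Sox17* stood at 5.37 FPKM in MPs and 3.58 in NotoPs at E8.5, *Foxa3* at 5.09 and 4.16, *Epcam* at 22.7 and 18.3, *Ttr* at 8.5 and 0, and *Cubn* at 12.6 and 0. In MPs at E9.5 *Epcam* was at 0.444 FPKM and the other 4 were listed at 0. Of 25 endoderm genes, 14 reached 1 FPKM in MPs at E8.5 (sum 236 FPKM, most abundant *Afp* at 62.2) and 13 in NotoPs (276, *Cdx2* at 126). At E9.5 it was 5 in MPs (95.9, *Cdx2* at 52.7) and 7 in NotoPs (201, *Cdx2* at 107), with *Sox17* listed at 0 in both. MPs were sorted as Foxa2-negative and T-positive, and *Foxa2* stood at 1.25 FPKM in MPs and 57 in NotoPs at E8.5. The part of endoderm cells in the difference between stages was not tested.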

How the results depend on the processing

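Of 66 alternatives, 10 of which were chosen after seeing the data, 30 left a result within its interval or, for counts, within 1.5 times the reported count, and none gave a negative median log2 ratio or more lower than higher genes. With a pseudocount of 0.1, however, the share of lower member genes fell from above to below that of all genes, from 0.729 against 0.461% to 2.31 against 2.61% over MP diff cells and from 1.09 against 0.862% to 3.95 against 4.3% over NMP diff cells. Where fewer or more peaks, genes or letters were admitted, or the fold or the FPKM minimum was changed, the change follows from the setting itself; for the pseudocount the cause was not tested. With summits within 1000 bp, the 1609 peaks became 292, the 61 higher genes over MP diff cells 11, the 12 lower genes 0, the 36 genes higher at both embryonic stages 9 and the median log2 ratio 0.05; within 2500 bp there were 857 peaks. With the 5′ ends of all transcripts there were 3245 peaks and, as an added alternative, 97 higher genes. The share of peaks with a forkhead motif was 28.3% within 100 bp, 12.1% for TGTTTAC alone and 34.2% with TGTTTGC and TATTTGC added. The T-box share was 1.24% within 100 bp and 9.76% with 6 letters. At 5 FPKM, 48.8% of member genes were counted as expressed. The median log2 ratio was 0.13 over genes with at least 1 FPKM in either culture and 0.11 over those with a mean of at least 1 FPKM, the latter an added alternative. With a pseudocount of 0.1, the higher and lower genes numbered 191 and 38 over MP diff cells, 153 and 65 over NMP diff cells, and 91 and 14 at both embryonic stages; with a pseudocount of 5 they numbered 15 and 6 over MP diff cells and, as added alternatives, 13 and 9 over NMP diff cells and 16 and 0 at both embryonic stages. At 2-fold, these pairs were 159 and 26, 140 and 49, and 90 and 18. At E9.5 alone there were 64 and 17. Scaling by the median of ratios left 61 and 12. NotoPs and MPs pair by stage, with 1 pair at each stage, and their ratios are given for each stage without a test. FPKM values give no depth for a gene.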

Other observations

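Some member genes varied widely between libraries. *Spink3*, for a trypsin inhibitor, stood at 136 FPKM in trunk notochord at E8.5, was listed at 0 in the other 5 embryonic libraries and in NMP diff cells, and was at 4.38 FPKM in NotoP diff cells against 0.412 in MP diff cells, with a peak of 7.13 at 664 bp upstream. *Asns* stood at 244 FPKM in NMP diff cells and between 8.63 and 56.4 in the other 8. The histone gene *Hist1h2ap* was at 33 FPKM in NotoP diff cells, 92.2 in NMP diff cells and 4.42 in MP diff cells, and did not pass 0.00753 in the embryonic libraries.

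The prostaglandin dehydrogenase gene *Hpgd* was at 7.68 and 19.4 FPKM in trunk notochord and listed at 0 in NotoPs, and the transcription factor gene *Sim1*, with 2 peaks, at 3.59 and 12.9 against 0.385 and 0. *Lrig1*, for a feedback inhibitor of receptor tyrosine kinases, was at 105 and 149 FPKM in trunk notochord, 72.3 and 33.3 in NotoPs and 7.84 and 11 in MPs, and at 60.3 in NotoP diff cells against 22.7 in MP diff cells. These genes were named after their values were seen.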
